A study of Mus musculus with 24 samples.

Results

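Confluent NIH 3T3 cells carrying activated TAZ were compared here with sub-confluent NIH 3T3 cells carrying the empty vector. The 2 groups were taken from the sample labels and hold 6 of the 24 RNA-Seq libraries of the series, 3 in each group. NIH 3T3 is an established mouse fibroblast line, and the study set fusion proteins of TAZ and YAP beside activated TAZ and YAP in it. The cells of both groups were pooled stable lines made by retroviral transduction with the pBabeNeo vector and selection with G418, so both carry the vector and its resistance gene. TAZ4SA cells express a doubly Flag-tagged TAZ in which 4 serines phosphorylated by the LATS kinases were changed to alanine, and they were collected 48 h after reaching confluence. EVsub cells carry the vector without an insert and were collected before confluence, with no time given. Density and construct therefore differ together between the groups and cannot be told apart. The 3 confluent empty vector libraries (EV, 48 h) are given beside them, since they share the vector with EVsub and the density with TAZ4SA. Per the study's methods the replicates of a construct came from separate transductions, each selected into its own stable line. Whether an EVsub and an EV library came from the same line is not stated.

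TAZ (gene symbol Wwtr1) and its paralog YAP switch genes on while held on chromatin by partner proteins, chiefly the TEAD family. In crowded fibroblasts the Hippo kinases LATS1 and LATS2 phosphorylate them and keep them in the cytoplasm, and at low density they enter the nucleus and the cells cycle. A serine-to-alanine TAZ escapes that phosphorylation, which is why its state at confluence can be set beside the natural state at low density.

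TAZ4SA libraries held 21688196, 16471181 and 21964589 counts and EVsub libraries 20198078, 28020955 and 22363950. Some libraries stood apart from the others of their group. TAZ4SA replicates 2 and 3 differed by 0.795 (root mean square log2 difference over tested genes), against 0.577 and 0.596 for the other pairs of the group. EVsub replicate 3 lay 0.534 to 0.561 from the EV libraries, nearer than EVsub replicates 1 and 2, which lay 0.709 to 0.777 from them. Between a TAZ4SA and an EVsub library the difference was 0.952 to 1.285, more than between any pair of libraries within either group. Levels are CPM, the library-scaled counts that edgeR gives with TMM factors, and are listed for replicates 1, 2 and 3 in that order.

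Genes averaging 5 or more counts were tested with the quasi-likelihood method of edgeR and Benjamini-Hochberg p-values, and 7639 of 14361 differed between TAZ4SA and EVsub at an adjusted p under 0.05, which is 53.2%. Of these 3978 were higher in TAZ4SA (27.7% of tested genes) and 3661 were lower (25.5%). At least a 2-fold change was met by 1568 of the genes called higher and 1413 of those called lower, and at least an 8-fold change by 272 and 100. The median log2 fold change over all tested genes was 0.01. When only these 6 libraries entered the fit the count was 4105, with 2197 higher and 1908 lower. The groups did not overlap for 6543 genes (45.6%). The comparisons of EVsub with EV and of TAZ4SA with EV share libraries with this one, so their values are only set side by side. EVsub against EV called 3173 genes (22.1%), with 12.5% of tested genes higher and 9.59% lower. That count was 1971 without EV replicate 3 and 2098 without EVsub replicate 2. TAZ4SA against EV called 8253 (57.5%), with 31.1% higher and 26.4% lower.

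**Figure D1:**
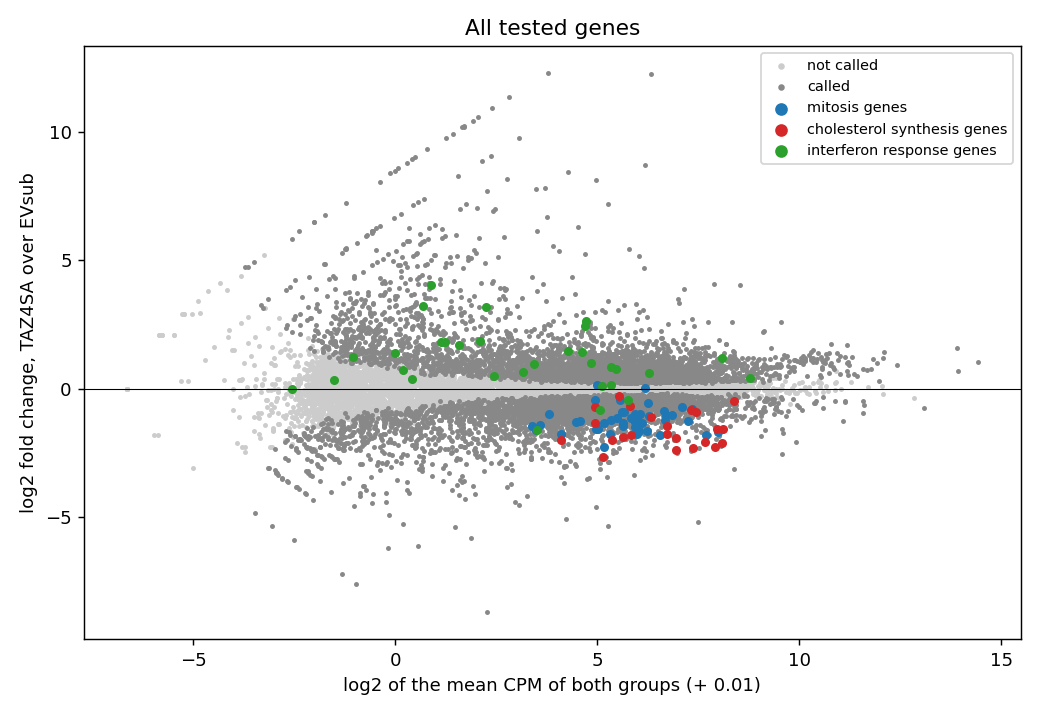
Each point is a tested gene, with the log2 of its mean CPM over both groups on the x axis and its log2 fold change of TAZ4SA over EVsub on the y axis. Called genes are dark grey, and the mitosis and cholesterol synthesis genes lie mostly below 0 while most interferon response genes lie above it.

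The fibroblast label was checked on 16 markers, of which 15 were tested. Of these 4 were higher and 6 lower, beside 27.7% and 25.5% of all tested genes, and 3 of the calls were lost in the fit of the 6 libraries. The summed level of the list was 15800, 19800 and 16500 CPM in TAZ4SA and 17200, 26600 and 20500 CPM in EVsub. Vim, the intermediate filament of mesenchymal cells, was at 3960, 5300 and 3890 CPM in TAZ4SA and at 3790, 4490 and 3950 CPM in EVsub, and Col1a2, a fibrillar collagen chain, at 6020, 7600 and 5780 CPM and 6470, 10600 and 7750 CPM. Neither was called, and their groups overlapped. Fap, fibroblast activation protein, was at 10.8, 9.74 and 13.4 CPM in TAZ4SA and 0.0455, 0.712 and 0.127 CPM in EVsub. Prrx1, a transcription factor of mesenchyme, was at 282, 251 and 289 CPM against 651, 500 and 701 CPM, and Pdgfrb, a PDGF receptor, at 219, 197 and 198 CPM against 319, 425 and 389 CPM. These 3 genes did not overlap between the groups, with log2 fold changes of 5.14 ± 0.47 (SE), -1.17 ± 0.13 (SE) and -0.88 ± 0.12 (SE). Tcf21 was at 0 in all 6 libraries.

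Wwtr1 (ENSMUSG00000027803; chromosome 3, 57455649 to 57575910), the mouse gene of TAZ, was at 164, 171 and 152 CPM in TAZ4SA, at 102, 107 and 117 CPM in EVsub and at 130, 136 and 136 CPM in EV. Every TAZ4SA library was above every EVsub library, with a log2 fold change of 0.58 ± 0.09 (SE; edgeR adjusted p = 1.67e-05). Whether reads from the transduced construct align to the mouse gene was not tested, so this level is no measure of the construct. Yap1 (ENSMUSG00000053110; chromosome 9, 7931999 to 8004596), the paralog, was at 118, 113 and 112 CPM in TAZ4SA, at 137, 138 and 152 CPM in EVsub and at 193, 170 and 189 CPM in EV. Its TAZ4SA libraries were all below its EVsub libraries, with a log2 fold change of -0.32 ± 0.08 (SE; edgeR adjusted p = 0.00295), a call not made when only the 6 libraries entered the fit.

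Of 24 known TAZ/YAP target genes, 22 were tested, and 13 were higher and 5 lower in TAZ4SA than in EVsub. Their median log2 fold change was 0.56 against 0.01 over all tested genes, of which 27.7% were higher and 25.5% lower. In the fit of the 6 libraries alone the counts were 7 and 3. Ccn2 (ENSMUSG00000019997; chromosome 10, 24595442 to 24598683), a secreted matricellular protein, was at 173, 208 and 437 CPM in TAZ4SA, at 143, 129 and 37.7 CPM in EVsub and at 14.6, 18.3 and 19.9 CPM in EV. All TAZ4SA libraries were the highest, EVsub replicate 3 lay well below the other EVsub libraries, and every EV library was lower still. Ccn1 (ENSMUSG00000028195; chromosome 3, 145646976 to 145649981), its close relative, was at 299, 489 and 337 CPM in TAZ4SA, at 223, 203 and 57.5 CPM in EVsub and at 42.9, 63.8 and 61.5 CPM in EV, with the same low EVsub replicate 3. The log2 fold changes were 1.40 ± 0.38 (SE) and 1.22 ± 0.36 (SE), and neither was called with only the 6 libraries in the fit. Ankrd1 (ENSMUSG00000024803; chromosome 19, 36111961 to 36120099), an ankyrin repeat protein of muscle and stressed cells, was at 170, 171 and 374 CPM in TAZ4SA, at 75.8, 39.3 and 44.5 CPM in EVsub and at 15.7, 31.5 and 18.6 CPM in EV. Its groups did not overlap, and it was higher by a log2 fold change of 2.17 ± 0.31 (SE; edgeR adjusted p = 7.7e-06).

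Gadd45a (ENSMUSG00000036390; chromosome 6, 67035096 to 67037457), a growth arrest and DNA damage protein, had the largest rise of the list. It was at 81.4, 73.9 and 55.2 CPM in TAZ4SA and 3.82, 9.15 and 6.51 CPM in EVsub, while EV lay between them at 34.3, 27.3 and 38.5 CPM. Its log2 fold change was 3.42 ± 0.24 (SE) for TAZ4SA over EVsub and -2.35 for EVsub over EV. Amotl2, a junction protein that holds YAP and TAZ in the cytoplasm, was at 449, 560 and 726 CPM in TAZ4SA and 390, 302 and 322 CPM in EVsub. Lats2, a kinase of the pathway and itself a target, was at 92, 92.7 and 140 CPM against 48.2, 40.8 and 48.7 CPM. Neither gene's groups overlapped, and the log2 fold changes were 0.77 ± 0.16 (SE) and 1.24 ± 0.14 (SE). Fjx1, a secreted regulator related to four-jointed, had the largest fall, at 1.04, 1.35 and 2.55 CPM in TAZ4SA and 6.83, 8.08 and 8.15 CPM in EVsub. It lay below every EVsub library, with a log2 fold change of -2.19 ± 0.28 (SE), while Axl, a receptor tyrosine kinase that was not called, overlapped between the groups at 861, 889 and 1030 CPM and 958, 1320 and 875 CPM.

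**Figure D2:**
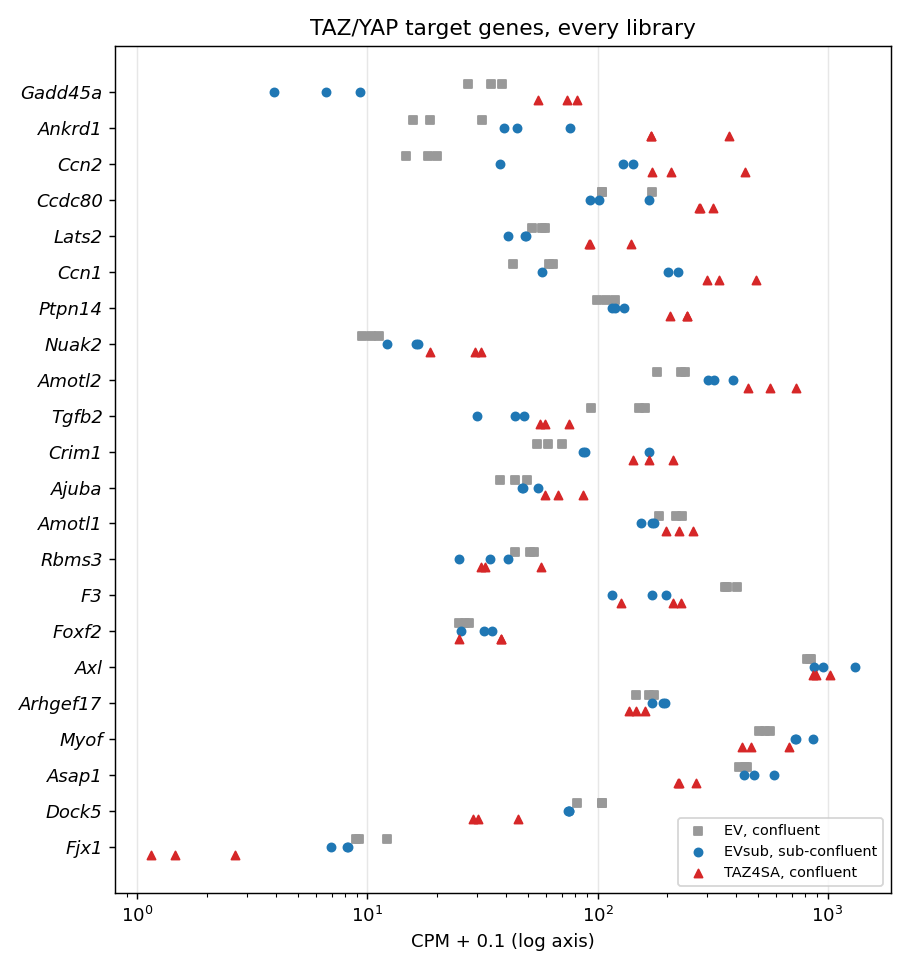
Each row is a tested TAZ/YAP target gene, with the CPM (plus 0.1, log axis) of each library of EV, EVsub and TAZ4SA. Rows run from the largest rise (Gadd45a, log2 fold change 3.42) to the largest fall (Fjx1, -2.19) in TAZ4SA over EVsub.

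The 25 genes of the Hippo pathway and TEAD factors were all tested, and 13 were higher and 5 lower, with a median of 0.35, beside 27.7% and 25.5% of all tested genes. With only the 6 libraries fitted, 8 were higher and 1 lower. The count of lower genes was 3 without TAZ4SA replicate 2 and 8 without TAZ4SA replicate 3. Wwc1 (KIBRA), an upstream adaptor, was at 53.8, 53.1 and 102 CPM in TAZ4SA and 25.4, 22.1 and 16.9 CPM in EVsub. Tead1, a DNA-binding partner of TAZ, was at 261, 230 and 303 CPM against 178, 149 and 158 CPM. Stk4 (MST1), the kinase above LATS, was at 86.9, 84.4 and 97 CPM against 47.1, 46.3 and 45 CPM. Amot, an angiomotin that binds YAP, was at 95.3, 75.1 and 98.9 CPM against 160, 161 and 183 CPM and at 275, 222 and 306 CPM in EV. The first 3 genes were above and Amot below every EVsub library, with log2 fold changes of 1.70 ± 0.20 (SE), 0.71 ± 0.12 (SE), 0.96 ± 0.08 (SE) and -0.90 ± 0.13 (SE).

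Promoters of TAZ/YAP targets are shown because these genes are read through TEAD factors. The TEAD motif GGAATG was searched on both strands, so that capitals may spell its reverse complement, in the 250 bases before each gene's start. 3414 of 27025 genes in the RefSeq table held it (12.6%), as did 7 of the 17 targets matched by symbol. These were Ajuba, Amotl2, Ankrd1, Axl, Ccn1, Crim1 and Ptpn14, so the motif was also before Axl, which was not called. Ccn1, Ankrd1 and Amotl2 were higher in TAZ4SA and are printed 5′ to 3′ on the gene's strand with the motif in capitals, from chr3:145649986-145650235 on the minus strand, chr19:36119845-36120094 on the minus strand and chr9:102717554-102717803 on the plus strand of build GRCm38.p6. The starts are RefSeq's, and the windows of Ankrd1 and Amotl2 lie inside the gene spans of GENCODE. The matches overlap no other motif searched here, and a match describes the letters only.
Ccn1: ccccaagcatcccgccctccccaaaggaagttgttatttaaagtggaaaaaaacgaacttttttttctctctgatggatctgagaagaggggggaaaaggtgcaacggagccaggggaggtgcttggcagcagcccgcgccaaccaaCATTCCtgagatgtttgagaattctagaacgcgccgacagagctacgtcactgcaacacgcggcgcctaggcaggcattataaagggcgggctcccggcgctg
Ankrd1: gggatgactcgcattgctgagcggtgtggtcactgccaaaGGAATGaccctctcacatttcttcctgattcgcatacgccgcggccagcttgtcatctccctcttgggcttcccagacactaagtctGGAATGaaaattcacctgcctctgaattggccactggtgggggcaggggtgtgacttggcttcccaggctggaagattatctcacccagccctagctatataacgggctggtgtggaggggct
Amotl2: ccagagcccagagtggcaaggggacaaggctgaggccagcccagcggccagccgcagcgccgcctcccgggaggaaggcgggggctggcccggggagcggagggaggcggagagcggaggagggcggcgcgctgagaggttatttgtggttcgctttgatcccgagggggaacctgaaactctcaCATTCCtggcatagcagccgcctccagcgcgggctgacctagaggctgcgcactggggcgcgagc

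The largest rises were in genes nearly silent in EVsub. Slc6a12 (ENSMUSG00000030109; chromosome 6, 121343076 to 121365775), a transporter of betaine and GABA, was at 38, 29.3 and 15.6 CPM in TAZ4SA and at 0 in every EVsub and EV library. Against a floor of 3 counts over the 3 EVsub libraries (0.0407 CPM) it was at least 661-fold higher in TAZ4SA. Hapln1 (ENSMUSG00000021613; chromosome 13, 89539796 to 89611652), which links hyaluronan to proteoglycans, was at 10.5, 6.67 and 25.2 CPM in TAZ4SA and at 0 in every EVsub library, at least 382-fold higher, though DESeq2 did not call it. TAZ4SA replicate 3 was the lowest of its group for Slc6a12 and the highest for Hapln1. Ccl20, a chemokine, was at 4.46, 8.17 and 19.3 CPM and at 0 in EVsub, at least 278-fold higher. Panx3, a pannexin channel, was at 5.46, 5.47 and 14 CPM and at 0 in EVsub, at least 219-fold higher. Arhgap36, an inhibitor of protein kinase A, was at 5.8, 7.34 and 9.54 CPM and at least 189-fold higher, Crybg2 at 5.95, 4.8 and 8.57 CPM and at least 166-fold, and Tll1, a tolloid-like metalloprotease, at 8.18, 2.92 and 7.87 CPM and at least 167-fold. Of 14361 tested genes, 28 were at 0 in every EVsub library and counted in every TAZ4SA library, and 5 showed the reverse. A gene at 0 in a group passes the count filter only through other groups, so nothing is read from these counts.

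Sorbs2 (ENSMUSG00000031626; chromosome 8, 45507788 to 45827906), an adaptor of actin stress fibres, was at 191, 119 and 171 CPM in TAZ4SA against 2 counts in all over the EVsub libraries, a ratio of 6110 (95% counting interval 1690 to 50500). Il31ra, a subunit of the interleukin-31 receptor, was at 16.6, 13.3 and 20.2 CPM in TAZ4SA with 1 count in EVsub, a ratio of 1270 (228 to 50400). Parm1, a mucin-like membrane protein, was at 9.08, 10.5 and 6.95 CPM with 1 count in EVsub, a ratio of 630 (113 to 24900). These intervals and floors cover counting error only, and reads copied from the same molecule would make them too narrow. Vip (ENSMUSG00000019772; chromosome 10, 5639218 to 5647617), the vasoactive intestinal peptide, was at 167, 102 and 167 CPM in TAZ4SA, at 0.592, 0.249 and 0.211 CPM in EVsub and at 0 in every EV library. Upk1b (ENSMUSG00000049436; chromosome 16, 38773184 to 38800328), a tetraspanin of urothelial and mesothelial surfaces, was at 42.6, 37.7 and 36.6 CPM in TAZ4SA and 0, 0.285 and 0 CPM in EVsub. Their log2 fold changes were 8.71 ± 0.35 (SE) and 8.43 ± 0.49 (SE), and no EVsub library came near the TAZ4SA range.

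The 12 largest falls by fold follow. Tnfrsf11b (ENSMUSG00000063727; chromosome 15, 54250619 to 54278484), osteoprotegerin, the decoy receptor for RANKL, was at 0.0992, 0 and 0.22 CPM in TAZ4SA and 8.24, 9.08 and 4.52 CPM in EVsub. Prl2c2, a proliferin of the prolactin family, was at 16.6, 6.29 and 6.11 CPM against 410, 395 and 253 CPM, and its near-identical paralog Prl2c3 at 0.546, 0.15 and 0.22 CPM against 2.37, 15.5 and 0.93 CPM. Reads may be split between these copies, so the 2 values are uncertain, and EVsub replicate 2 was far above the others for Prl2c3, whose log2 fold change was -2.35 without it. Rgs4, which shortens G protein signals, was at 0.843, 0.974 and 1.36 CPM against 22.9, 65 and 20.5 CPM. Trabd2b, a metalloprotease that inactivates Wnt proteins, was at 2.23, 1.72 and 3.21 CPM against 35.7, 95.4 and 50.7 CPM. In each of these genes every TAZ4SA library was below every EVsub library, with log2 fold changes of -5.83 ± 0.57 (SE), -5.18 ± 0.49 (SE), -4.29 ± 0.87 (SE), -5.07 ± 0.55 (SE) and -4.62 ± 0.33 (SE). Itih2, a hyaluronan-binding heavy chain, was at 0.595, 0.899 and 0.615 CPM in TAZ4SA, 15.3, 20 and 9.17 CPM in EVsub and 3.21, 3.2 and 2.52 CPM in EV. Apln, the ligand apelin, was at 0.446, 0.599 and 1.8 CPM against 20, 20.5 and 14.4 CPM. AW551984 was at 1.29, 1.57 and 2.51 CPM against 69.6, 44.5 and 111 CPM. These last 3 genes did not overlap between the groups either, and their log2 fold changes were -4.43 ± 0.30 (SE), -4.18 ± 0.29 (SE) and -5.36 ± 0.41 (SE).

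Fam135b was at 0, 0 and 0.044 CPM in TAZ4SA, which is 1 count in all, and at 7.01, 12.6 and 9.46 CPM in EVsub, a ratio of 558 in favour of EVsub (99.8 to 22100). Clip4, a CAP-Gly domain protein, was at 0.0992, 0.225 and 0.0879 CPM in TAZ4SA and 4.92, 4.81 and 6.55 CPM in EVsub. Cd300lb, an immunoglobulin-like receptor, was at 0.546, 1.12 and 0.527 CPM against 20.6, 14.6 and 12.7 CPM, and Adgrl3, a latrophilin, at 0.546, 0.15 and 0.22 CPM against 5.05, 7.4 and 4.48 CPM. All TAZ4SA libraries were below all EVsub libraries, with log2 fold changes of -5.37 ± 0.36 (SE), -4.52 ± 0.38 (SE) and -4.13 ± 0.44 (SE). Sorbs2, Crybg2 and Adgrl3, and further on Rack1, Fn1, S100a4, Rb1, Txnip, Tk1, Ccna2 and Igf2, overlap other annotated genes. The libraries were stranded, per the study's methods, and whether the deposited counts used the strand is not stated.

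**Figure D3:**
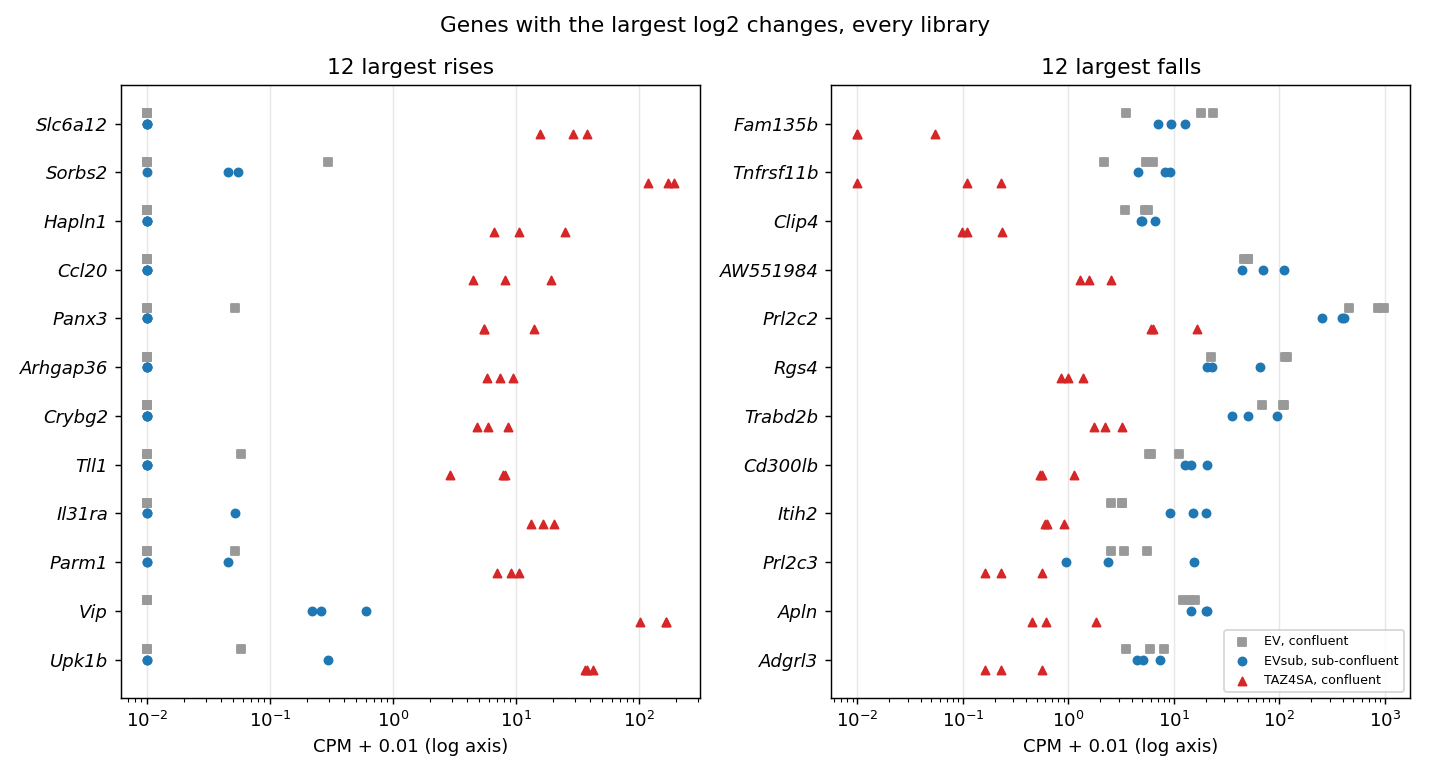
Each row is a gene among the 12 with the largest log2 rises (left) or falls (right) in TAZ4SA over EVsub, with the CPM (plus 0.01, log axis) of each library of EV, EVsub and TAZ4SA. Points at the left edge are libraries with no count. Genes whose groups overlapped were left out by the rule that chose them.

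Among the largest rises by level, Eef1a1 (ENSMUSG00000037742; chromosome 9, 78478449 to 78489151), the elongation factor that delivers aminoacyl-tRNA, was at 30800, 39600 and 18600 CPM in TAZ4SA and 13100, 13700 and 16000 CPM in EVsub. Eef2, the factor that moves the ribosome along, was at 20700, 33500 and 14500 CPM against 6330, 7470 and 8920 CPM. Rack1, a scaffold on the small ribosomal subunit, was at 5820, 9680 and 3920 CPM against 2070, 2420 and 2670 CPM. For all 3 genes TAZ4SA replicate 2 was the highest library, replicate 3 the lowest of its group, and the groups did not overlap. Their log2 fold changes were 1.05 ± 0.20 (SE), 1.60 ± 0.23 (SE) and 1.44 ± 0.21 (SE). The ribosomal proteins Rplp0 and Rps6 had log2 fold changes of 0.92 ± 0.18 (SE) and 1.20 ± 0.19 (SE). Ribosomal protein genes took 12.8, 15 and 9.81% of counts in TAZ4SA, 6.39, 6.88 and 7.55% in EVsub and 6.58, 5.47 and 6.1% in EV. Of 79 tested ribosomal protein genes, a set chosen after its values were seen, 77 were higher and 0 lower, beside 27.7% and 25.5% of all tested genes. Their median log2 fold change was 1.04, or 0.81 without TAZ4SA replicate 2 and 1.26 without TAZ4SA replicate 3. The list of 30 ribosome biogenesis genes had 7 higher, 5 lower and a median of 0.08, near or under the 27.7% and 25.5% of all tested genes.

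The fit of the 6 libraries gave 4 higher and 0 lower, and single libraries moved these counts too. The list had 13 genes higher and 2 lower without EVsub replicate 2, and 4 higher and 2 lower without TAZ4SA replicate 2. The count of higher genes was 4 without EVsub replicate 3, and 3 were lower without EVsub replicate 1 as without TAZ4SA replicate 1. Dkc1, a pseudouridine synthase, was at 38.2, 29.6 and 68.6 CPM in TAZ4SA against 92.8, 95.9 and 57 CPM in EVsub, with -0.84 ± 0.23 (SE) in log2. TAZ4SA replicate 3 reached above EVsub replicate 3, and the fit of the 6 libraries did not call it. Noc2l, a nucleolar protein, was at 117, 153 and 108 CPM against 67, 86.2 and 59.7 CPM, above EVsub in every library, with 0.83 ± 0.13 (SE).

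Among the largest falls by level, Fn1, fibronectin, was at 6820, 7500 and 5160 CPM in TAZ4SA, 8200, 11700 and 13000 CPM in EVsub and 16500, 16800 and 19100 CPM in EV. Thbs2, an antiangiogenic thrombospondin, was at 396, 489 and 238 CPM in TAZ4SA, 1420, 1290 and 2040 CPM in EVsub and 3160, 5480 and 3900 CPM in EV. Both genes ran in the order TAZ4SA, EVsub, EV from low to high with no overlap, and TAZ4SA over EVsub was -0.76 ± 0.18 (SE) and -2.08 ± 0.27 (SE) in log2. S100a4, a calcium-binding protein of motile fibroblasts, was at 190, 155 and 324 CPM in TAZ4SA and 1320, 1540 and 1060 CPM in EVsub. Lgals1, galectin-1, was at 1100, 1440 and 1340 CPM against 2860, 3590 and 2770 CPM. Both were lower in every TAZ4SA library, by log2 fold changes of -2.55 ± 0.24 (SE) and -1.25 ± 0.15 (SE). Col1a1 was at 1800, 2380 and 2140 CPM against 2870, 6070 and 3170 CPM, and its call was lost without EVsub replicate 2, the highest library. The mitochondrial transcripts went both ways, with mt-Co1 at 19300, 23900 and 15200 CPM against 11800, 11600 and 12600 CPM and mt-Nd1 at 2750, 1830 and 3040 CPM against 3890, 3340 and 3400 CPM. The fit of the 6 libraries alone called neither of them nor Fn1, and mt-Nd1 also lost its call without EVsub replicate 1 or TAZ4SA replicate 2. Of the 13 mitochondrially encoded genes, 2 were higher and 6 lower, beside 27.7% and 25.5% of all tested genes, or 1 lower in the fit of the 6 libraries. The largest fall, -0.72 ± 0.25 (SE), was that of mt-Nd4l, which overlaps mt-Nd4 on the same strand and was not called without TAZ4SA replicate 1.

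Of 44 DNA replication genes, 39 were lower and 1 higher in TAZ4SA than in EVsub, with a median log2 fold change of -1.0, beside 25.5% of all tested genes lower and 27.7% higher. The groups overlapped for 22 of the 44 and did not for 22, near the 45.6% of all tested genes that did not, and relative to the EVsub mean the list's median in log2 was -0.68 in EVsub replicate 3 and -0.76 in TAZ4SA replicate 3. The genes with the largest falls, named next, did not overlap. Mcm5, a subunit of the replicative helicase, was at 15.9, 18.9 and 31.5 CPM in TAZ4SA, 110, 185 and 52.2 CPM in EVsub and 23.3, 46.8 and 25.4 CPM in EV. Tk1, thymidine kinase, was at 8.23, 7.34 and 12.6 CPM in TAZ4SA, 57.8, 119 and 27.5 CPM in EVsub and 10.7, 21.4 and 11.7 CPM in EV. Uhrf1, which maintains DNA methylation behind the fork, was at 15.5, 18.1 and 35.6 CPM in TAZ4SA, 121, 190 and 62.6 CPM in EVsub and 30.5, 63.1 and 31.8 CPM in EV. In these 3 genes the TAZ4SA libraries lay below EVsub and within or below the range of EV, with log2 fold changes over EVsub of -2.38 ± 0.36 (SE), -2.84 ± 0.37 (SE) and -2.43 ± 0.35 (SE). Cdc6, which loads the helicase, was at 3.07, 2.17 and 5.76 CPM in TAZ4SA and 22.3, 27.7 and 9.42 CPM in EVsub. Pcna, the sliding clamp, was at 39.9, 37.6 and 54.8 CPM in TAZ4SA and 150, 178 and 87.5 CPM in EVsub. Over the list, EVsub against EV had 38 genes higher and a median of 0.96, and TAZ4SA against EV had 6 higher, 7 lower and a median of -0.06. Over all tested genes EVsub against EV had 12.5% higher and 9.59% lower, and TAZ4SA against EV 31.1% and 26.4%.

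Of 45 mitosis genes, 40 were lower and 0 were higher in TAZ4SA than in EVsub, with a median of -1.27, beside the same shares of all genes. Their summed level was 1350, 1630 and 2580 CPM in TAZ4SA, 4400, 6360 and 2010 CPM in EVsub and 794, 1610 and 837 CPM in EV. EVsub replicate 3 was below TAZ4SA replicate 3, and the groups overlapped for 37 of the genes and did not for 8, while over all tested genes 45.6% did not. Without EVsub replicate 2, the highest library, 23 genes were lower, and 22 were in the fit of the 6 libraries alone. Nuf2, a kinetochore protein, was at 10.2, 6.44 and 20.1 CPM in TAZ4SA, 61.1, 92.1 and 27 CPM in EVsub and 11.1, 19.7 and 10.5 CPM in EV. Ccna2, cyclin A, was at 28.5, 35.1 and 62.9 CPM in TAZ4SA, 153, 219 and 68 CPM in EVsub and 21.7, 52.3 and 22 CPM in EV. Mki67, a proliferation marker, was at 42.9, 34.8 and 202 CPM in TAZ4SA, 376, 443 and 152 CPM in EVsub and 61.9, 147 and 66.3 CPM in EV. TAZ4SA replicate 3 reached into the EVsub range for Mki67 but not for Ccna2, and the log2 fold changes were -1.79 ± 0.49 (SE) and -1.79 ± 0.36 (SE), and -2.27 ± 0.36 (SE) for Nuf2. Mki67 was not called in the fit of the 6 libraries. EVsub against EV had 45 mitosis genes higher with a median of 2.00, and TAZ4SA against EV had 22 higher and a median of 0.74, beside 12.5% and 31.1% of all tested genes higher. In bulk RNA, fewer cycling cells and less of these transcripts per cell cannot be told apart.

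Among 18 G1 cyclins and CDK inhibitors, 15 were tested, with 6 higher and 3 lower, beside 27.7% and 25.5% of all tested genes. Cdkn1a (ENSMUSG00000023067; chromosome 17, 29090976 to 29100727), the CDK inhibitor p21, was at 539, 812 and 307 CPM in TAZ4SA, 81.1, 107 and 80.8 CPM in EVsub and 60.2, 44.2 and 48 CPM in EV. Rb1, which holds E2F factors in check, was at 40.7, 37.5 and 41.6 CPM against 13.3, 11.1 and 13.2 CPM in EVsub. Myc, a driver of growth, was also higher, at 183, 212 and 230 CPM against 109, 117 and 79.3 CPM. The groups did not overlap for any of the 3, with log2 fold changes of 2.62 ± 0.26 (SE), 1.67 ± 0.17 (SE) and 1.04 ± 0.15 (SE). Ccnd1, cyclin D1, was not called, at 40.5, 55.6 and 127 CPM in TAZ4SA and 141, 155 and 76.1 CPM in EVsub, with a log2 fold change of -0.73 ± 0.35 (SE). Without EVsub replicate 3 that was -0.99 and without TAZ4SA replicate 3 -1.37, and both were called. Of 20 growth arrest genes 19 were tested, with 6 higher and 8 lower, beside the same shares. Txnip, which binds thioredoxin, was at 1500, 1960 and 413 CPM against 100, 201 and 332 CPM and Klf4, a transcription factor of quiescence, at 92.9, 83.9 and 83.4 CPM against 23.8, 23.2 and 14.5 CPM. TAZ4SA replicate 3 was far below the other TAZ4SA libraries for Txnip but above EVsub, and the log2 fold changes were 2.61 ± 0.40 (SE) and 2.08 ± 0.17 (SE). Gas2 and Gas7 were lower, with log2 fold changes of -2.21 ± 0.21 (SE) and -1.84 ± 0.22 (SE).

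Promoters of cell cycle genes are shown because most replication and mitosis genes were called lower in the fit of all libraries. The E2F motif TTTNNCGC was in 4.39% of all promoters and in 9 of 35 replication genes with an entry, and the CHR motif TTTGAA was in 16.3% of all and in 11 of 37 mitosis genes. Cdc6 holds the first in capitals (chr11:98907901-98908150 on the plus strand), and Ccnb2, a mitotic cyclin at 6.4, 9.67 and 11.9 CPM in TAZ4SA and 16.8, 28.7 and 10.1 CPM in EVsub, the second (chr9:70421555-70421804 on the minus strand), from the same table, build and window length, and the Cdc6 window lies inside its GENCODE span. TAZ4SA replicate 3 was above EVsub replicate 3 for Ccnb2, which was called in the fit of all libraries but not without EVsub replicate 2, without TAZ4SA replicate 1 or with the 6 libraries alone.
Cdc6: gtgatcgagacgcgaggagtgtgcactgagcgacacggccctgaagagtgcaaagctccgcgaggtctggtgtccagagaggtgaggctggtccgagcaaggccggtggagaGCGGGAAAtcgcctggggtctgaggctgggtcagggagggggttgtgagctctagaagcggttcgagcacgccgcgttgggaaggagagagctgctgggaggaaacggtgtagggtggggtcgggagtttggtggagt
Ccnb2: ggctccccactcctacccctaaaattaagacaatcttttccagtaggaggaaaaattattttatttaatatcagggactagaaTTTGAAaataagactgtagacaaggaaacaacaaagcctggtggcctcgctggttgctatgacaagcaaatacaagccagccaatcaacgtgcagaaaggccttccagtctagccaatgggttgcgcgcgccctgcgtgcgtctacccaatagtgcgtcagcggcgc

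Cholesterol synthesis genes were lower in TAZ4SA than in EVsub from the first step to the last. Of 24 genes 23 were tested, and 23 were lower, beside 25.5% of all tested genes, with a median log2 fold change of -1.75. Their summed level was 1140, 1560 and 1950 CPM in TAZ4SA, 5080, 3500 and 4690 CPM in EVsub and 2670, 4190 and 3870 CPM in EV. TAZ4SA replicate 3 was the highest of its group, and every TAZ4SA library was below every library of both vector groups. Hmgcs1 (ENSMUSG00000093930; chromosome 13, 119690379 to 119708260), the synthase at the head of the pathway, was at 53.9, 45.7 and 145 CPM in TAZ4SA, 525, 234 and 439 CPM in EVsub and 262, 431 and 423 CPM in EV. Idi1, the isomerase of isopentenyl diphosphate, was at 4.26, 2.7 and 21.5 CPM in TAZ4SA and 83.3, 34.5 and 67 CPM in EVsub. Nsdhl, an enzyme of the late steps, was at 27.4, 34.6 and 56.7 CPM against 237, 150 and 231 CPM. Their groups did not overlap, with log2 fold changes of -2.28 ± 0.36 (SE), -2.65 ± 0.50 (SE) and -2.38 ± 0.25 (SE). EVsub against EV called 2 of these genes higher and 0 lower, and TAZ4SA against EV called 20 lower, with medians of 0.32 and -1.40. The shares of all tested genes were 12.5% higher and 9.59% lower in the first and 26.4% lower in the second.

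The Hmgcs1 promoter is shown because all 23 tested cholesterol synthesis genes were called lower in the fit of all libraries. A sterol response motif spelled TCACNCCAC was in 1.04% of all promoters and in 1 of 16 matched genes of the list, Hmgcs1 (chr13:119690101-119690350 on the plus strand), and the shorter CCAAT was in 34.5% of all and 15 of the 16. CCAAT was also in 29 of 37 mitosis, 21 of 35 replication, 11 of 27 interferon response and 6 of 17 TAZ/YAP target promoters. Capitals mark the sterol motif.
Hmgcs1: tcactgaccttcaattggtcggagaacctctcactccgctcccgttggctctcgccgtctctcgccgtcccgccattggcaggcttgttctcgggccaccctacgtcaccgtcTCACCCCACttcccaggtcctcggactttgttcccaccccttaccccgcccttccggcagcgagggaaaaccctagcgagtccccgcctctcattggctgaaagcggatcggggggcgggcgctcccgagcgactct

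Interferon response genes were mostly higher. Of 35 genes 31 were tested, with 20 higher, 2 lower and a median of 0.98, beside 27.7% and 25.5% of all tested genes. Ifit1, an antiviral RNA-binding protein, was at 7.69, 10.3 and 7.6 CPM in TAZ4SA, 0.82, 0.676 and 1.31 CPM in EVsub and 1.31, 2.1 and 2.08 CPM in EV. Bst2, tetherin, was at 47.3, 53.7 and 29.9 CPM in TAZ4SA, 5.1, 8.05 and 11 CPM in EVsub and 11.2, 12.5 and 10.9 CPM in EV. Ifit3 was at 50.9, 66.7 and 19.4 CPM against 5.19, 2.85 and 13.9 CPM in EVsub. TAZ4SA was above EVsub in all 3 genes, with TAZ4SA replicate 3 the lowest for each, by log2 fold changes of 3.18 ± 0.28 (SE), 2.43 ± 0.24 (SE) and 2.64 ± 0.52 (SE). EVsub against EV called 0 of the list higher and 9 lower, and TAZ4SA against EV 19 and 6. Beside them stand 12.5% and 9.59% of all tested genes in the first comparison and 31.1% and 26.4% in the second. The motif TTTCNNTTT was in 12 of 27 promoters of the list and in 9.52% of all.

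**Figure D4:**
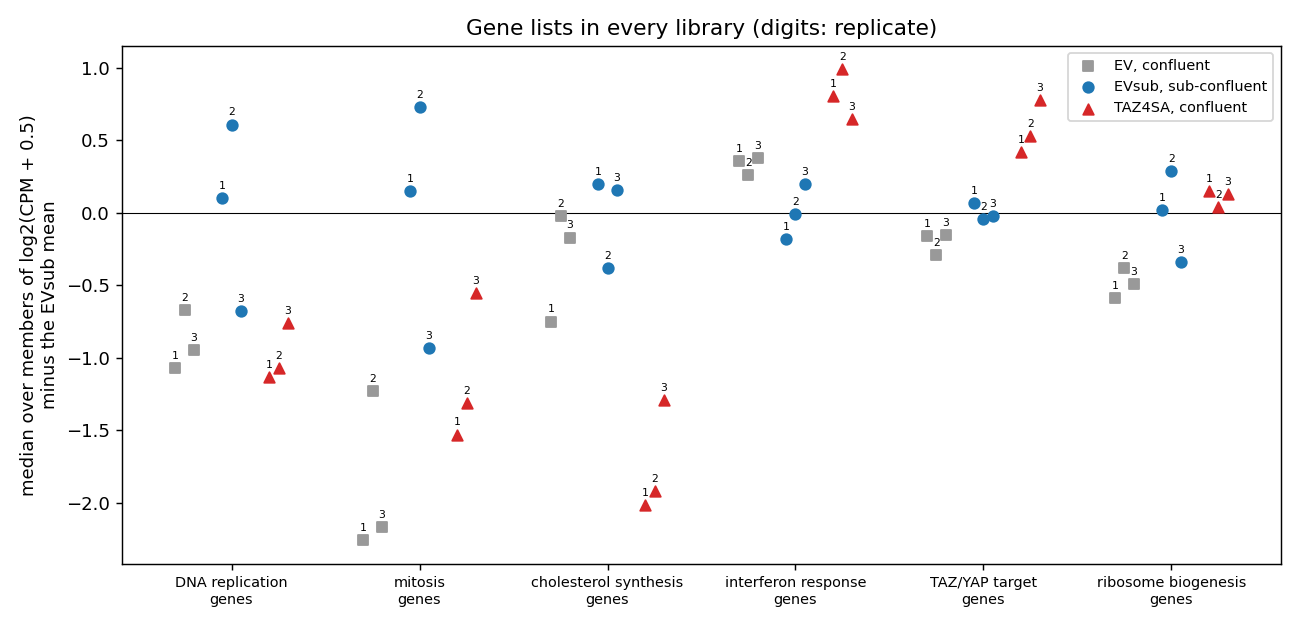
Each point is a library, labelled with its replicate number. The y axis is the median over a list's tested genes of log2(CPM + 0.5) minus the EVsub mean, for 6 lists on the x axis. Mitosis genes in EVsub replicate 3 and TAZ4SA replicate 3 lie at -0.93 and -0.55, and cholesterol synthesis genes lie at -1.29 or lower in TAZ4SA.

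Several lists held called genes in both directions, as did all tested genes, of which 27.7% were higher and 25.5% lower, so their counts are read against these shares and describe the lists only. Of 41 matrix glycoproteins and proteoglycans 39 were tested, with 14 higher and 11 lower. Lama5, a laminin chain of basement membranes, was at 37.1, 54.4 and 45.9 CPM in TAZ4SA and 0.228, 0.748 and 0.718 CPM in EVsub. Lama2, the laminin chain of muscle, was at 93.6, 60.8 and 40.6 CPM against 6.51, 8.12 and 9.93 CPM. Thbs1, thrombospondin-1, was at 3600, 2430 and 2090 CPM against 999, 513 and 927 CPM, the reverse of Thbs2. These 3 genes were above EVsub in every TAZ4SA library, by 6.29 ± 0.40 (SE), 2.99 ± 0.28 (SE) and 1.73 ± 0.31 (SE) in log2. Lum, lumican, was at 28.6, 26.3 and 17.7 CPM in TAZ4SA, 1.27, 2.74 and 9 CPM in EVsub and 46.6, 70.6 and 51 CPM in EV, so that TAZ4SA lay between the vector groups. Mfap4, a microfibril protein, and Prelp, a leucine-rich proteoglycan, were higher, with 3.87 ± 0.53 (SE) and 2.81 ± 0.36 (SE). Of 23 collagen genes 22 were tested, with 5 higher and 8 lower, the latter 5 without EVsub replicate 2 and 5 in the fit of the 6 libraries. Col11a1 was at 144, 139 and 181 CPM in TAZ4SA against 26.1, 30.9 and 59.8 CPM in EVsub, Col5a2 at 1730, 1880 and 2520 CPM against 734, 959 and 665 CPM and Col16a1 at 72.5, 80.5 and 148 CPM against 370, 455 and 353 CPM. Of 30 proteases, inhibitors and crosslinkers 26 were tested, with 6 higher and 11 lower (7 lower in the fit of the 6 libraries), among them Adamts4, which cleaves aggrecan, with 1.99 ± 0.21 (SE), and Mmp9, a gelatinase, with -3.70 ± 0.60 (SE).

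The contractile genes had 9 higher and 11 lower of 28 tested out of 29. The count of higher genes was 3 in the fit of the 6 libraries, 5 without EVsub replicate 2 and 4 without TAZ4SA replicate 1. Acta2, smooth muscle actin, was at 274, 227 and 190 CPM in TAZ4SA, 745, 1140 and 600 CPM in EVsub and 321, 212 and 317 CPM in EV. Tagln, an actin-binding protein of smooth muscle, was at 28.7, 21.4 and 20.6 CPM against 67.1, 167 and 65.7 CPM in EVsub. Zyx, a focal adhesion protein, went the other way, at 998, 1320 and 1170 CPM against 520, 584 and 540 CPM. Csrp2, a LIM protein, and Myl9, a myosin light chain, fell the most, with -2.49 ± 0.29 (SE) and -2.20 ± 0.26 (SE). Acta2, Tagln and Zyx did not overlap between the groups, and the log2 fold changes were -1.85 ± 0.23 (SE), -2.08 ± 0.29 (SE) and 1.08 ± 0.13 (SE). Of 23 integrins and adhesion receptors 20 were tested, with 7 higher, 5 lower and a median log2 fold change of -0.02. The 5 lower genes are not named here. The laminin-binding subunits Itgb4, Itga7 and Itga3 and the leukocyte subunit Itgb7 were higher, with log2 fold changes of 3.63 ± 0.30 (SE), 2.45 ± 0.30 (SE), 1.87 ± 0.23 (SE) and 2.27 ± 0.36 (SE). Of 34 cell-cell contact genes 24 were tested, with 12 higher and 7 lower. A rare member passes the count filter only through a group where it is high, so these counts are not read as a rise. The summed level of the whole list was 2050, 2080 and 2240 CPM in TAZ4SA and 2350, 2410 and 2390 CPM in EVsub. Pkp2, a desmosomal plaque protein, had 2.34 ± 0.24 (SE), Cdh2, N-cadherin, 1.03 ± 0.15 (SE) and the protocadherin Pcdh7 -2.95 ± 0.24 (SE).

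The lists of signalling genes are given in the same way, beside the 27.7% of all tested genes that were higher and the 25.5% that were lower, and nothing is read from counts near these shares. Here too, a rare member passes the count filter only through a group where it is high. Of 27 AP-1 and immediate early genes 26 were tested, with 11 higher and 10 lower. The higher count was 6 in the fit of the 6 libraries, 7 without EVsub replicate 3 and 6 without TAZ4SA replicate 2. Atf3, a stress-induced factor, was at 39.8, 31.8 and 25.2 CPM in TAZ4SA and 2.55, 2.53 and 3.38 CPM in EVsub. Egr1, a zinc finger factor induced by serum, was at 25.7, 74.4 and 64.8 CPM against 176, 232 and 137 CPM, Egr2 at 0.248, 0.375 and 0.615 CPM against 6.33, 7.58 and 8.24 CPM and Egr3 at 0.397, 0.3 and 0.659 CPM against 4.51, 7.4 and 4.9 CPM. Atf3 was above and the Egr genes were below every EVsub library, with log2 fold changes of 3.52 ± 0.19 (SE), -1.73 ± 0.40 (SE), -4.11 ± 0.39 (SE) and -3.56 ± 0.56 (SE). Of 35 TGF-beta and BMP genes 27 were tested, with 9 higher and 14 lower. Inhba, the activin A subunit, was at 36.5, 34.7 and 94.2 CPM against 11.1, 4.7 and 5.32 CPM and its inhibitor Fst at 11.3, 17.5 and 7.43 CPM against 1.14, 0.748 and 1.35 CPM. TAZ4SA was the higher group for both, without overlap, by 2.98 ± 0.41 (SE) and 3.48 ± 0.37 (SE) in log2. Id2, a target of BMP signalling, was lower, with a log2 fold change of -2.95 ± 0.49 (SE).

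Of 36 growth factors and receptors 29 were tested, with 10 higher and 7 lower. Igf2, an insulin-like growth factor, was at 361, 545 and 195 CPM in TAZ4SA, 20.3, 71.1 and 90 CPM in EVsub and 100, 284 and 169 CPM in EV. Vegfa, the angiogenic factor, was at 119, 97 and 129 CPM against 44.6, 42.3 and 48.4 CPM in EVsub and Fgf7 at 50.2, 36 and 65 CPM against 223, 121 and 204 CPM. The first 2 genes lay above and Fgf7 below EVsub, with log2 fold changes of 2.60 ± 0.51 (SE), 1.35 ± 0.12 (SE) and -1.85 ± 0.23 (SE). Igfbp4, which binds the insulin-like growth factors, was higher by 1.94 ± 0.34 (SE). Of 14 EGF family genes 9 were tested, with 5 higher and 3 lower, and Egfr, the EGF receptor, was at 57.8, 69.1 and 54.7 CPM against 22.9, 21 and 26.8 CPM, while its ligand Ereg was at 1.93, 2.32 and 6.02 CPM against 8.83, 11.6 and 6.08 CPM. Of 32 chemokines and cytokines 25 were tested, with 9 higher and 9 lower. Spp1, osteopontin, was at 28.9, 52.7 and 127 CPM in TAZ4SA, 389, 773 and 645 CPM in EVsub and 1490, 2290 and 1860 CPM in EV, and Cxcl12 at 85.9, 79.6 and 92.8 CPM, 153, 242 and 391 CPM and 775, 1120 and 906 CPM. For both genes EVsub lay between TAZ4SA and EV, and TAZ4SA over EVsub was -3.11 ± 0.38 (SE) and -1.61 ± 0.29 (SE) in log2. Of 24 glycolysis genes 23 were tested, with 8 higher and 10 lower (5 higher in the fit of the 6 libraries). Pfkfb3, which makes the activator of phosphofructokinase, had 2.59 ± 0.33 (SE), Pdk1, which holds back pyruvate dehydrogenase, -1.77 ± 0.15 (SE) and Ldha, lactate dehydrogenase, -1.07 ± 0.18 (SE).

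**Figure D5:**
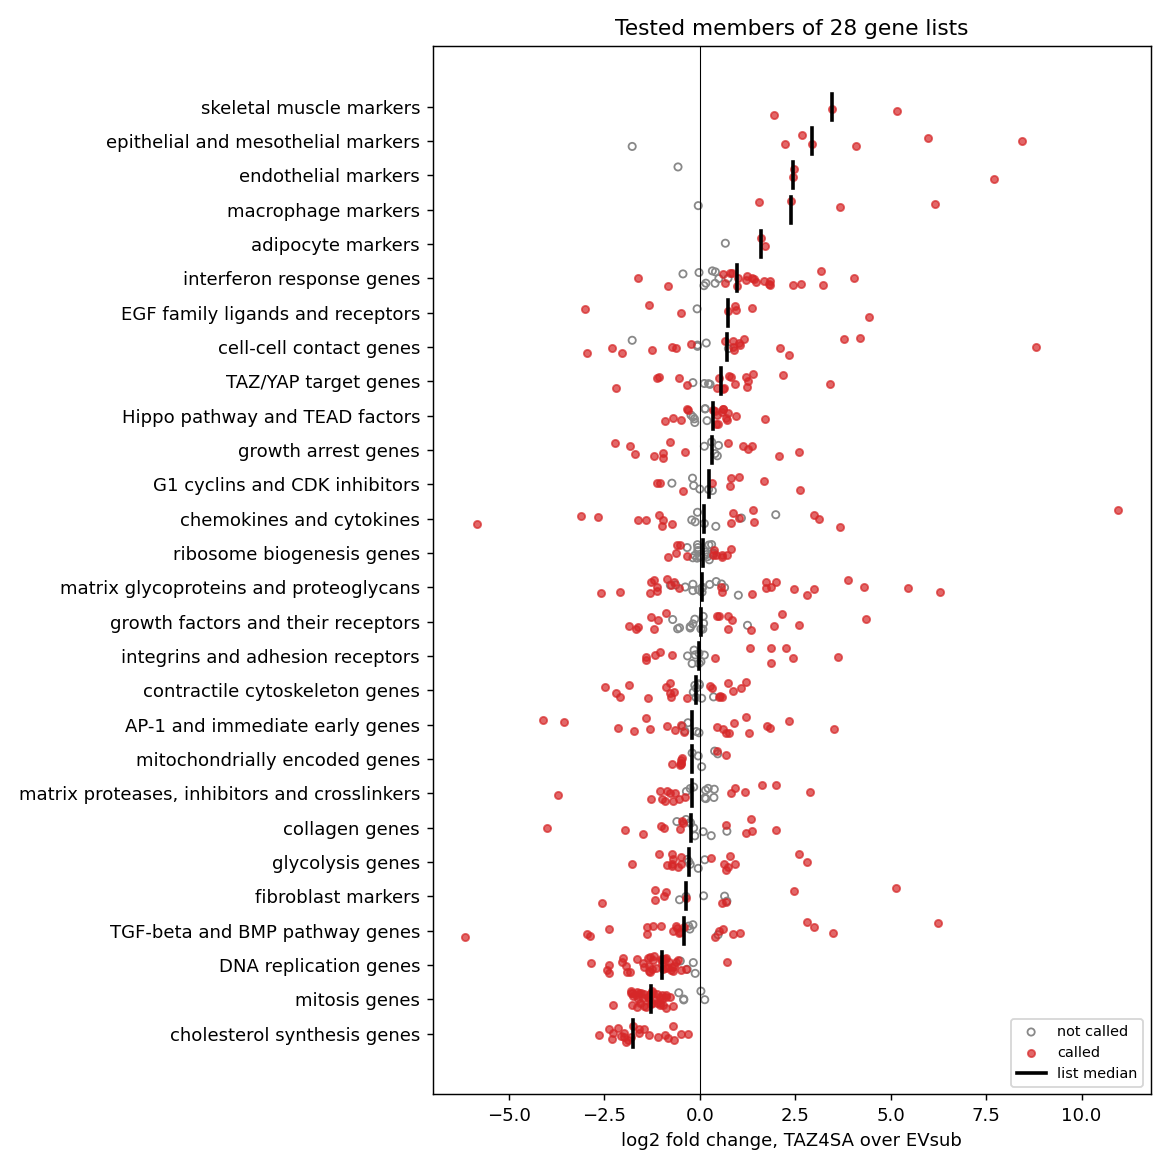
Each point is a tested gene of 1 of 28 lists, with its log2 fold change of TAZ4SA over EVsub on the x axis. Filled points were called, open points were not, and the black bar is the list's median, at -1.75 for cholesterol synthesis genes and 0.98 for interferon response genes. Marker lists of other cell types show only the members with enough counts, and their bars are not read.

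Markers of other cell types were read beside these results. For them no count of calls is given, since a rare marker passes the count filter only through a group where it is high. Of 15 epithelial and mesothelial markers 7 passed the count filter, and the summed level was 458, 582 and 464 CPM in TAZ4SA and 36.1, 13.5 and 36.2 CPM in EVsub. Msln, mesothelin, was the most abundant per exon length, at 401, 531 and 415 CPM against 34, 11.1 and 34.1 CPM, while Krt14, a basal keratin, was at 0.843, 1.12 and 1.45 CPM against 0.182, 0.356 and 0.169 CPM, Krt8, a keratin of simple epithelia, at 0.298, 0.45 and 0.176 CPM against 0, 0 and 0.0845 CPM, Upk3b, a mesothelial uroplakin, at 1.34, 1.35 and 0.923 CPM against 0, 0 and 0.0423 CPM and Wt1, a transcription factor of mesothelium, at 0.298, 0.15 and 0.527 CPM against 0.137, 0 and 0 CPM. The epithelial markers Epcam and Esrp1 were at 0 in all 6 libraries and Cdh1, E-cadherin, was at 0, 0.0749 and 0.044 CPM against 0.137, 0.178 and 0.0845 CPM.

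Of 10 macrophage markers 5 passed that filter, with a summed level of 71.6, 63.4 and 21 CPM in TAZ4SA and 9.24, 8.05 and 9.38 CPM in EVsub. Cd68, a lysosomal protein, was the most abundant per exon length, at 56, 53.8 and 12.1 CPM against 3.05, 2.24 and 4.23 CPM, Csf1r, the receptor for CSF1, was at 8.83, 3.97 and 3.43 CPM against 2.19, 2.49 and 0.803 CPM, while Itgam, an integrin of myeloid cells, was at 2.53, 0.674 and 0.747 CPM against 0, 0.0356 and 0 CPM and Adgre1, C1qa and C1qb were at 0 in all 6 libraries. Of 10 endothelial markers 4 passed that filter, with a summed level of 17.2, 13.9 and 9.58 CPM against 1.27, 1.1 and 0.972 CPM. Kdr, a receptor for VEGF, was the most abundant of them per exon length in TAZ4SA, at 11.2, 10.1 and 7.6 CPM with 3 counts in EVsub, a ratio of 233 (79.2 to 1130), and Pecam1 was at 0.595, 0.524 and 0.44 CPM against 0.0911, 0.0712 and 0.0845 CPM. Esam, the most abundant of the list per exon length in EVsub, was at 0, 0 and 0.0879 CPM in TAZ4SA and 0.273, 0.178 and 0.0845 CPM in EVsub. Of 10 skeletal muscle markers 3 passed that filter, with a summed level of 17.7, 15.7 and 7.52 CPM against 0.956, 0.926 and 1.06 CPM. Tnnt3, a troponin, was the most abundant per exon length in TAZ4SA, at 8.53, 5.99 and 2.24 CPM against 0.0911, 0.107 and 0.254 CPM in EVsub. Des, desmin, was at 7.19, 8.32 and 3.87 CPM against 0.683, 0.427 and 0.634 CPM, Myog, the myogenic factor myogenin, was at 0.546, 0.3 and 0.44 CPM with no count in EVsub, and Myod1, Myf5 and Mymk were at 0 in all 6 libraries. Of 8 adipocyte markers 3 passed that filter, with a summed level of 300, 298 and 245 CPM against 57.8, 81 and 138 CPM. In EV that level was 174, 849 and 252 CPM, so TAZ4SA and EV overlapped. Lpl, lipoprotein lipase, led this list at 290, 290 and 235 CPM against 55.6, 77.9 and 136 CPM, Fabp4, a fatty acid carrier, was at 8.63, 6.74 and 7.6 CPM against 1.96, 2.88 and 2.2 CPM, Lep, leptin, was at 0.546, 0.599 and 2.24 CPM with no count in EVsub, and Cebpa and Plin1 were at 0. The part of any such cells in the other results was not tested.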

How the data were processed

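RNA-Seq counts per gene of 24 libraries in 8 groups were used as the authors deposited them, 1 table of whole numbers per library. Per the study's methods libraries were stranded and reads were aligned with Hisat2 and also quantified with Salmon and tximport, and which route made these tables is not stated. Ensembl gene IDs were matched to GENCODE M21 (37693 of 39017 IDs). Library totals ran from 16471181 to 30132586 counts, so a gene with few counts has a wide relative error, and folds against 0 counts are bounds. Groups came from the sample labels. TMM factors and quasi-likelihood fits of edgeR 4.0.16 (R 4.3.3) used all 24 libraries with 1 mean per group, on 14361 genes averaging 5 or more counts. P-values were adjusted over all of these genes by the Benjamini-Hochberg method, and a gene was called at an adjusted p under 0.05. The 3 contrasts tested were TAZ4SA over EVsub, EVsub over EV and TAZ4SA over EV. Each standard error (SE) is the absolute log2 fold change divided by the square root of the quasi-likelihood F statistic. It restates that test and was not estimated separately. Named genes were Wwtr1 and Yap1, and then, among protein-coding genes called, averaging 50 or more counts and with groups that did not overlap, the 12 largest rises and 12 largest falls by fold and the 6 by mean CPM, and from each list its called members with the largest fold changes beside defining members. Some genes that fit this rule are not reported here. The members and lists were chosen with earlier results of these data known. Alternatives tried were DESeq2 1.42.0, its size factors, no filter, 10 counts in every library of the groups, a replicate block, only the compared groups, a fold threshold and leaving out each library. Promoters are RefSeq sequences. Tables and figures were made with Python 3.11.15, pandas 2.3.3, scipy 1.17.1 and matplotlib 3.10.9.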

Additional observations from a re-analysis of the deposited data

How the results depend on the processing

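Genes called between TAZ4SA and EVsub both here and under an alternative kept their direction. The 7639 genes called between TAZ4SA and EVsub were 7780 with DESeq2, 7650 with its size factors and 6576 to 8419 with 1 library left out. They were 4105 (2197 higher, 1908 lower) with only the 6 libraries in the fit, and 2981 (1568 and 1413) when a change of 2-fold or more was also asked for. For EVsub against EV, 3173 genes became 1683 and 961 under these last 2 settings and 1971 to 3668 with 1 library left out, and TAZ4SA against EV went from 8253 to 3525 with the fold threshold. The fits of fewer libraries have fewer samples, and the fold threshold passes fewer genes. Leaving out a library also raised counts, to 8419 without TAZ4SA replicate 3 and, for EVsub against EV, to 3668 without EVsub replicate 3. The main fit shared its estimate of the spread over all 8 groups. Within each group alone, the biological coefficient of variation was 0.266 in TAZ4SA, 0.196 in EVsub and 0.13 in EV. What caused these moves was not tested.

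With the replicate block 7534 genes were called. Same-numbered TAZ4SA and EVsub libraries had correlated deviations of 0.03, 0.23 and -0.12, so the numbers were not taken to pair the samples.

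Of 390 list counts of 5 or more under alternatives (smaller counts were not followed), 362 stayed within 1.5 times and 28 moved; the cause was not tested. With only the 6 libraries fitted, counts became 7 higher and 3 lower for TAZ/YAP targets, 8 and 1 for Hippo and TEAD genes, 4 and 0 for ribosome biogenesis, 22 lower for mitosis, 5 lower for collagens, 7 lower for proteases, 1 lower for mitochondrially encoded genes, 3 higher for contractile genes, 6 higher for AP-1 and 5 higher for glycolysis. With 1 library left out, counts ran from 3 to 8 lower for Hippo and TEAD genes, 23 to 43 lower for mitosis, 5 to 10 lower for collagens, 4 to 8 higher for contractile genes, 6 to 11 higher for AP-1, and 4 to 13 higher and 2 to 6 lower for ribosome biogenesis. Of 1485 values for 135 named genes, 1462 kept their call, 20 lost it, 3 gained it and 0 reversed. Many of these genes were named because they were called, with large changes and groups that did not overlap. Their stability was thus partly set by that choice and does not stand for all called genes. With only the 6 libraries fitted, 125 of the 135 were unchanged, while 53.7% of all genes called in the main fit were still called.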
